A study of Mus musculus with 8 samples.

Results

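The genes described here encode the enzymes that write, maintain and remove DNA methylation in the mouse. The list held 9 genes: Dnmt1, Dnmt3a, Dnmt3b, Dnmt3l, Tet1, Tet2, Tet3, Uhrf1 and Tdg. Each gene was read from the probe set to which the array's annotation gives that symbol alone, taking the one with the highest mean over the 8 arrays. This rule found 8 of the 9 genes. Of the 3 probe sets annotated to Tdg, all also carry the symbols of its pseudogenes Tdg-ps and Tdg-ps2, so Tdg has no value here. Dnmt3l was below the filter on dim probe sets, a mean log2 signal of 5.37, which left 7 genes tested among the 12529 tested on the array.

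The cells were mouse cells of C57BL/6 background in a secondary reprogramming system, in which Oct4, Sox2, Klf4 and Myc (OSKM) are switched on by doxycycline. All groups received doxycycline, written in the labels as 2 mg per ml, and were grown in medium for mouse stem cells with leukemia inhibitory factor (100 units per ml) and 15% fetal bovine serum. Cells treated with DMSO or with CSA were profiled on days 3 and 6, with 2 arrays for each of the 4 groups, which the design text calls independent biological repeats. CSA, labelled as 10 mM, is not spelled out in the labels. The series title describes inhibition of the calcineurin-NFAT pathway, and CSA is the usual short form of cyclosporin A, which inhibits the phosphatase calcineurin and so keeps NFAT transcription factors out of the nucleus. The comparison asks what this changes on each day. The starting cell is not given, and the cells are labelled only as reprogramming cells. Bulk signals cannot tell fewer cells of a type from less RNA per cell.

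Correlations of log2 signals over the tested probe sets were 0.968 to 0.974 between the arrays of a group and 0.918 to 0.963 between groups, and no array stood apart. Fibroblast and epithelial markers were all above the filter (8 of 8 and 6 of 6). Of 10 pluripotency markers, Nanog, Zfp42, Tdgf1, Dppa4 and Tcl1 were below it. Blood cell markers were low, with Ptprc and Cd52 below the filter and a summed anti-logged signal of 351 to 577 over 5 genes on every array. No marker was at 0 on any array.

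Methyl groups are placed on cytosines, mainly in CpG dinucleotides. DNMT3A and DNMT3B set new methylation, helped by the catalytically inactive DNMT3L, whereas DNMT1 copies it to the new strand at replication, guided by UHRF1, which reads half-methylated CpG. TET enzymes oxidise methylcytosine, and the glycosylase TDG excises oxidised forms so that base excision repair can restore cytosine. In reprogramming to pluripotency, somatic methylation has to be cleared from pluripotency genes, and TET1 and TET2 are known to take part.

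Promoter sequence is shown for the genes on which the results turn. RefSeq promoters (GRCm38.p6) matched all 9 genes, with 16 annotated starts among them, and the 250 bases before each start were read. The window before the Dnmt3b start, chr2:153649199-153649448 on the plus strand, held 21 CpG, and that before the Tet2 start, chr3:133544391-133544640 on the minus strand, held 51. The median over 32851 such windows of the genome was 6, and 16.3% and 0.1% of all windows held at least as many. The windows are printed 5′ to 3′ with each CpG in capitals.
Dnmt3b: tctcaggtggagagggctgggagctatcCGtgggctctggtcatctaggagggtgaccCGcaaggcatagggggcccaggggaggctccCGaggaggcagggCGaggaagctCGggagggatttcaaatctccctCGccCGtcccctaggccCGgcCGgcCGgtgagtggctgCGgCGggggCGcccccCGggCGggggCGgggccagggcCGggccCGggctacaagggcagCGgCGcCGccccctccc
Tet2: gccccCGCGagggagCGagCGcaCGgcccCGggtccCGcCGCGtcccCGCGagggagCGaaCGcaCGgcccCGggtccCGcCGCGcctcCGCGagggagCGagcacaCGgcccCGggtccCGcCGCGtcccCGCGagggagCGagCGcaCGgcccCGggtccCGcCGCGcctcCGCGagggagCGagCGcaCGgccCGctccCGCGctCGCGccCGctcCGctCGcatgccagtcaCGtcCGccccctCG

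The same windows were searched on both strands for the letters of E2F sites, since E2F factors drive genes of S phase: TTTCCCGC, TTTCGCGC, TTTGCCGC and TTTGGCGC. Those that end in GCGC can overlap on opposite strands, and a window was counted once. At least 1 of these motifs occurred in 1.9% of all windows. Of the 16 windows of the 9 genes 2 held such a motif, 1 each of Dnmt1 and Uhrf1, the maintenance pair. Each motif contains a CG, and these 2 windows held 26 and 30 CpG against the median of 6. The share of all windows is thus not that of windows equally rich in CpG, which was not counted. The matches are shown in capitals within 30 bases, at chr9:20952824-20952853 on the minus strand, where the motif lies on the opposite strand, and at chr17:56304117-56304146 on the plus strand.
Dnmt1: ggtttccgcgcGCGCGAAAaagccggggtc
Uhrf1: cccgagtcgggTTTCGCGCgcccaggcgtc
The letters TGGAAA, a core of NFAT sites, were also searched on both strands. They stood in 2 of the 16 windows, 1 each of Dnmt1 and Dnmt3l, against 18.6% of all windows.

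**Figure D1:**
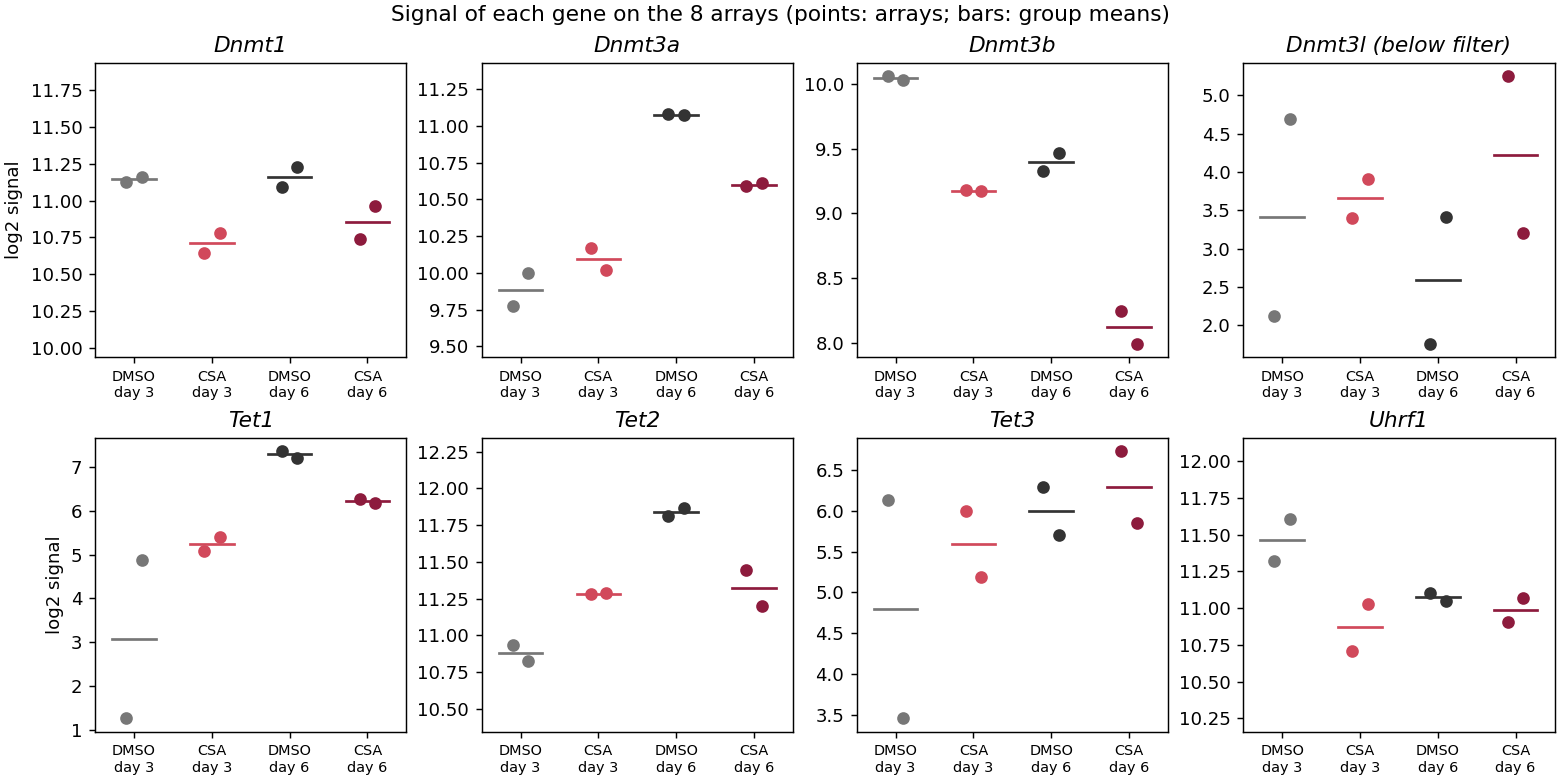
Log2 signal (vertical axis, a separate range for each gene) of the 8 genes with a probe set in DMSO and CSA at day 3 and day 6; points are the 2 arrays of a group and bars their mean. Dnmt3b is lowest on the CSA arrays of day 6 at 8.25 and 8.0, and Tet2 is highest on the DMSO arrays of day 6 at 11.81 and 11.86.

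The first comparison was of CSA with DMSO at day 3. Here 4 of the 7 tested genes passed the threshold (limma's moderated test, Benjamini-Hochberg adjusted over all tested probe sets, adjusted p under 0.05). Dnmt3b, Dnmt1 and Uhrf1 were lower with CSA, and Tet2 was higher. The background is 12.7% of all tested genes past the threshold at this day, 7.14% higher and 5.52% lower. The median log2 difference of the 7 genes was 0.21 and that of all tested genes -0.0042. The former is the value of Dnmt3a, which did not pass. Above it lay Tet2 at 0.40 and the dim Tet1 and Tet3, at 2.18 ± 0.94 and 0.79 ± 0.80, which did not pass either. Without the intensity trend in the prior variance only Dnmt3b passed, and without CSA replicate 1 of day 3 likewise. At day 6, 3 of the 7 were lower with CSA, Dnmt3b, Tet2 and Dnmt3a, and 0 were higher in limma (4 lower and 0 higher at an unadjusted p under 0.05). The background at day 6 was 12.5%, with 6.11% lower and 6.41% higher, and the medians were -0.48 for the 7 genes and -0.01 for all. Without the trend only Dnmt3b passed at day 6 as well. The CSA and day comparisons share arrays, so they are not independent of one another.

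Of the de novo enzymes, Dnmt3b was lower with CSA at both days. Its log2 signal was 10.06 and 10.03 on the DMSO arrays and 9.18 and 9.17 on the CSA arrays of day 3. At day 6 it was 9.33 and 9.47 with DMSO and 8.25 and 8.0 with CSA. At each day both CSA arrays lay below both DMSO arrays, and no group overlapped another, the DMSO arrays of day 3 being the highest and the CSA arrays of day 6 the lowest. Dnmt3b fell 1.83-fold at day 3, by 0.87 ± 0.13 on the log2 scale (limma's standard error, n = 2 arrays per group, adjusted p = 0.0018). At day 6 it fell 2.42-fold, by 1.27 ± 0.13 (limma adjusted p = 0.000154). The 2 effects differed by -0.41 ± 0.18 (limma adjusted p = 0.257), so a larger effect at day 6 did not pass the test. The fall passed under each of 13 alternatives at each day, including every omission of 1 array, with a log2 difference of -0.88 to -0.79 at day 3 and -1.40 to -1.15 at day 6. A setting that drops probe sets able to read several transcripts leaves Dnmt3b with none.

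Its other probe set, 1418351_a_at, was dimmer and less precise. It differed by -0.71 ± 0.26 at day 3 (limma adjusted p = 0.117) and fell by 1.20 ± 0.26 at day 6 (limma adjusted p = 0.0134). The size at day 6 was thus close in both, while at day 3 the dimmer one did not pass.

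Dnmt3a, the other de novo enzyme, differed from Dnmt3b in its course. Its log2 signal was 9.78 and 10.00 with DMSO and 10.17 and 10.02 with CSA at day 3. At day 6 it was 11.08 and 11.07 with DMSO and 10.59 and 10.61 with CSA. Both day 6 groups lay above both day 3 groups, and the DMSO arrays of day 6 were the highest of all. CSA against DMSO was 0.21 ± 0.10 at day 3 (limma adjusted p = 0.237) and Dnmt3a fell by 0.48 ± 0.10 at day 6, 1.39-fold (limma adjusted p = 0.0122). The day 6 effect minus the day 3 effect was -0.68 ± 0.14 (limma adjusted p = 0.0227), and it is 1 of 2 among the 7 genes to pass, both lower, against 5.79% of all tested genes past the threshold, 3.43% lower and 2.36% higher. Both calls were fragile. Its day 6 fall did not pass once any 1 of that day's 4 arrays was omitted (limma adjusted p = 0.0551 to 0.0766), and in the fit that had no trend (0.100). The difference between days ended in the fit that had no trend (0.166), when the gene's probe sets were averaged (0.100), and in 7 of 8 omissions of 1 array, up to 0.102 without CSA replicate 1 of day 3.

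Dnmt3a had 5 tested probe sets, and all 5 were lower with CSA at day 6, from -0.81 to -0.42, of which 2 passed. The largest, 1460324_at, fell by 0.81 ± 0.14 (limma adjusted p = 0.00492). At day 3 the 5 ranged from -0.47 to 0.21 and none passed in limma (0 at an unadjusted p under 0.05). These probe sets read 1 gene, so they are not separate evidence.

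Dnmt3l, the cofactor, was below the filter. Its log2 signals were 2.12 and 4.70 with DMSO and 3.40 and 3.91 with CSA at day 3, and 1.75 and 3.41 with DMSO and 5.25 and 3.20 with CSA at day 6. The arrays of each group spread widely and the groups overlapped at both days, and it was not tested.

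The maintenance pair was lower with CSA at day 3. Dnmt1 had log2 signals of 11.13 and 11.16 with DMSO and 10.64 and 10.78 with CSA at day 3. At day 6 they were 11.09 and 11.23 with DMSO and 10.74 and 10.96 with CSA. The CSA arrays lay below the DMSO arrays at both days, and the 2 DMSO groups overlapped. Dnmt1 fell by 0.43 ± 0.10 at day 3, 1.35-fold (limma adjusted p = 0.0158), and differed by -0.31 ± 0.10 at day 6 (limma adjusted p = 0.0700). The effects at the 2 days differed by 0.12 ± 0.14 (limma adjusted p = 0.683). The day 3 call ended when any 1 of the 4 arrays of that day was left out (limma adjusted p = 0.0500395 to 0.133), and in the fit that had no trend (0.136). The other Dnmt1 probe sets, 1435122_x_at and 1447877_x_at, were at -0.36 ± 0.11 and -0.46 ± 0.15 at day 3 (limma adjusted p = 0.0778 and 0.0884). The 3 thus agreed in direction and size at day 3 though 1 passed. At day 6 these other probe sets were at -0.16 ± 0.11 and -0.17 ± 0.15 (limma adjusted p = 0.439 and 0.563), and in each the CSA and DMSO arrays overlapped.

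Uhrf1 had log2 signals of 11.32 and 11.61 with DMSO and 10.71 and 11.03 with CSA at day 3. At day 6 they were 11.10 and 11.05 with DMSO and 10.91 and 11.07 with CSA. The day 3 groups were apart, while those of day 6 overlapped. Uhrf1 fell by 0.59 ± 0.12 at day 3, 1.51-fold (limma adjusted p = 0.0103), and was at -0.09 ± 0.12 at day 6 (limma adjusted p = 0.723). The difference between these effects was 0.50 ± 0.17 (limma adjusted p = 0.134) and did not pass, but with the mean of both probe sets it was 0.60 and passed (0.0252). The second probe set, 1415811_at, fell by 0.93 ± 0.16 at day 3 (limma adjusted p = 0.00494). At day 6 it was at -0.25 ± 0.16 (limma adjusted p = 0.406), with both CSA arrays below both DMSO arrays. The day 3 call of the brighter probe set ended in the fit that had no trend (0.129). Leaving out DMSO replicate 2 or CSA replicate 1 of day 3 also ended it (0.0744 and 0.103).

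Dnmt1 and Uhrf1 are known to be expressed with the DNA replication program, and 20 genes of that program were looked at beside them. At day 3, 12 of 19 tested were lower with CSA in limma and 0 higher (0 at an unadjusted p under 0.05), with a median log2 difference of -0.67. Of all tested genes 5.52% were lower and 7.14% higher at that day. Mcm5, a subunit of the replicative helicase, fell by 0.98 ± 0.07, Mcm3 by 0.75 ± 0.08 and Rrm1, of ribonucleotide reductase, by 0.81 ± 0.09 (limma adjusted p = 3.04e-05, 0.000206 and 0.00035). The Rrm1 call ended in the fit that had no trend. At day 6, 3 of 19 were lower, beside 6.11% of all tested genes, and the median was -0.10. The falls of Dnmt1 and Uhrf1 at day 3, 0.43 and 0.59, thus stood beside a fall of most of these genes, and its part in them was not tested. The day course differed for Dnmt1. From day 3 to day 6 in DMSO, 14 of 19 replication genes fell and 0 rose in limma (0 higher at an unadjusted p under 0.05, median -0.47). Of all tested genes 19.6% fell and 26.1% rose. Dnmt1 was at 0.02 ± 0.10 and Uhrf1 at -0.39 ± 0.12. Under CSA 5 fell and 1 rose (median -0.13), beside 15.8% and 20.2% of all tested genes.

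**Figure D2:**
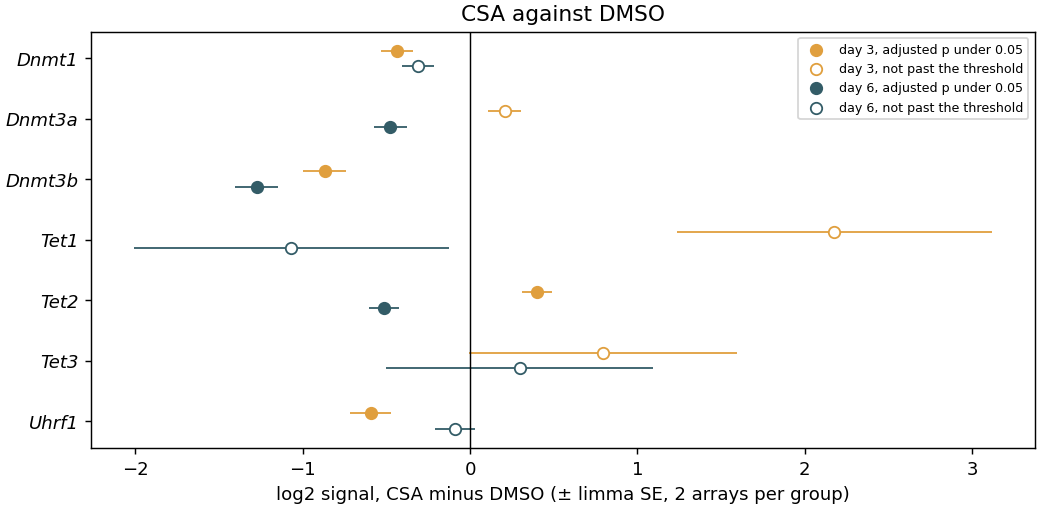
Difference in log2 signal between CSA and DMSO (horizontal axis) for the 7 tested genes at day 3 and day 6, with limma's standard error (bars, 2 arrays per group); filled points have an adjusted p under 0.05. Dnmt3b is below 0 at both days, at -0.87 and -1.27, and Tet2 lies above 0 at day 3 (0.40) and below it at day 6 (-0.52).

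Among the demethylating dioxygenases, Tet2 changed in opposite directions at the 2 days. Its log2 signal was 10.94 and 10.82 with DMSO and 11.28 and 11.29 with CSA at day 3. At day 6 it was 11.81 and 11.86 with DMSO and 11.44 and 11.20 with CSA. CSA arrays were above DMSO arrays at day 3 and below them at day 6, and the CSA groups of the 2 days overlapped. Tet2 rose by 0.40 ± 0.09 at day 3, 1.32-fold (limma adjusted p = 0.0163), and fell by 0.52 ± 0.09 at day 6, 1.43-fold (limma adjusted p = 0.00444). The day 6 effect minus the day 3 effect was -0.92 ± 0.13 (limma adjusted p = 0.00323). That difference passed in all 8 omissions of 1 array (limma adjusted p = 0.00406 to 0.0236) and ended without the trend (0.118). The fall at day 6 also held in its 4 omissions (0.00395 to 0.0477), and ended without the trend (0.0877). The rise at day 3 ended in the fit that had no trend (0.144) and when DMSO replicate 2 (0.0890), CSA replicate 1 (0.0922) or CSA replicate 2 (0.102) of that day was left out.

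The second Tet2 probe set, 1438781_at, had log2 signals of 9.84 and 9.79 with DMSO and 10.01 and 9.93 with CSA at day 3, and 11.16 and 11.37 with DMSO and 10.88 and 10.92 with CSA at day 6. It showed the same order of groups at each day with smaller differences. It was at 0.15 ± 0.09 at day 3 (limma adjusted p = 0.377), fell by 0.37 ± 0.09 at day 6 (limma adjusted p = 0.0327), and its difference between days was -0.52 ± 0.13 (limma adjusted p = 0.0542). The rise at day 3 therefore rests on 1 of the 2 probe sets, the fall at day 6 on both.

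Tet1 was dim, and 1 array decided its day 3 level. Its log2 signals were 1.26 and 4.88 with DMSO and 5.08 and 5.41 with CSA at day 3. At day 6 they were 7.36 and 7.21 with DMSO and 6.27 and 6.17 with CSA. CSA arrays lay above DMSO arrays at day 3 and below them at day 6. The effects were 2.18 ± 0.94 at day 3 and -1.07 ± 0.94 at day 6 and neither passed (limma adjusted p = 0.188 and 0.556), nor did their difference of -3.24 ± 1.33 (limma adjusted p = 0.214). Without DMSO replicate 1 of day 3 the day 3 effect was 0.37, and without replicate 2 it was 3.99 and passed (limma adjusted p = 0.00674), as did the difference between days at -5.05 (0.0132). The 3 dimmer probe sets of Tet1 were below the filter and were not tested. Of these, 1429448_s_at read 3.65 and 4.32 with DMSO and 2.93 and 3.29 with CSA at day 3, the opposite order at that day to the brightest probe set.

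Tet3 was also dim, at 6.14 and 3.45 with DMSO and 5.99 and 5.19 with CSA at day 3, and at 6.29 and 5.71 with DMSO and 6.74 and 5.86 with CSA at day 6. The groups overlapped at both days. Its effects of 0.79 ± 0.80 and 0.30 ± 0.80 did not pass (limma adjusted p = 0.621 and 0.880), and without DMSO replicate 2 of day 3 the first was -0.55.

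**Figure D3:**
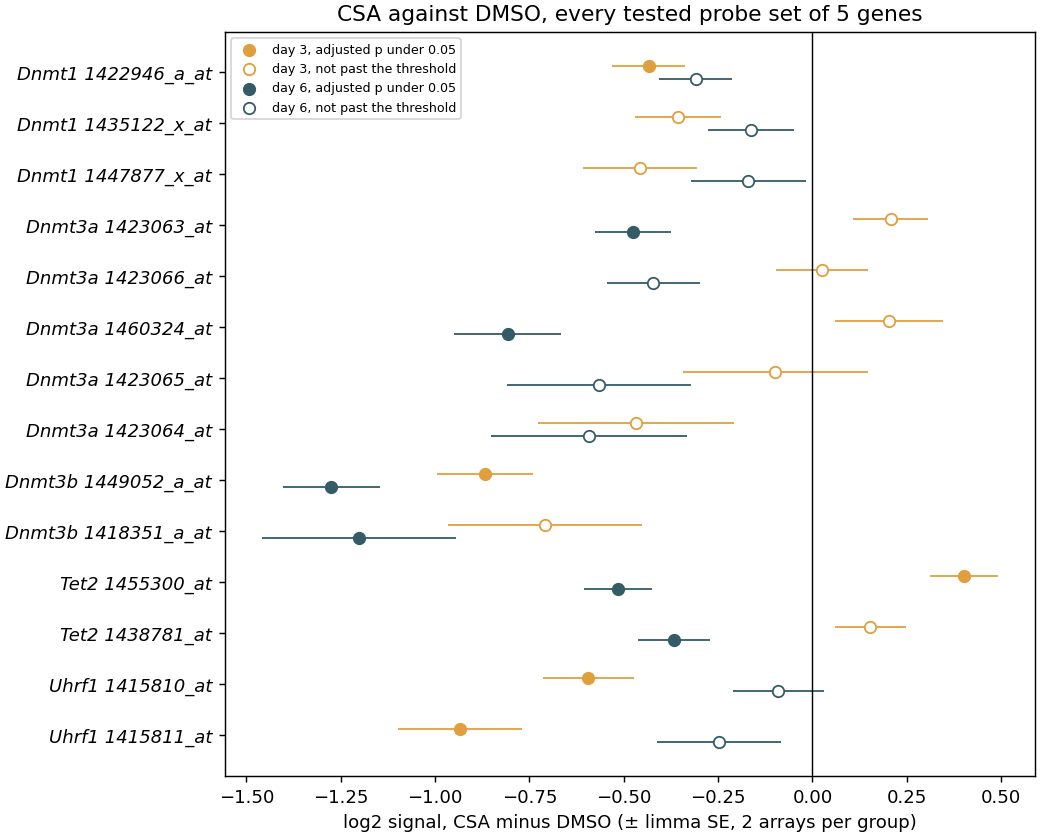
Difference in log2 signal between CSA and DMSO (horizontal axis) at day 3 and day 6 for each tested probe set of Dnmt1, Dnmt3a, Dnmt3b, Tet2 and Uhrf1, with limma's standard error (bars); filled points have an adjusted p under 0.05. All 5 Dnmt3a probe sets are below 0 at day 6, from -0.81 to -0.42, and both Uhrf1 probe sets pass at day 3.

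The day course was compared within each treatment. In DMSO, 3 of the 7 genes rose from day 3 to day 6 (Dnmt3a, Tet1 and Tet2) and 2 fell (Dnmt3b and Uhrf1), against 26.1% of all tested genes that rose and 19.6% that fell, 45.7% in all. Tet1 is in this count only because its day 6 signals lifted its mean over the filter, both DMSO arrays of day 3 being below it. Under CSA 1 rose, Dnmt3a, and 1 fell, Dnmt3b, with 20.2% and 15.8% of all genes, 36.1% in all. The median log2 change of all genes was 0.08 in both, and quantile normalization moved it to -0.03 in DMSO and -0.02 under CSA, so changes are also given relative to this median.

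Dnmt3a rose 2.28-fold in DMSO, by 1.19 ± 0.10 (limma adjusted p = 4.78e-06), or 1.11 relative to the median of all genes. Under CSA it rose 1.42-fold, by 0.51 ± 0.10 (limma adjusted p = 0.00286), or 0.42 relative to the median. The difference between these rises is the day by CSA difference of -0.68 given above. Of its 5 probe sets 4 rose in DMSO and 3 under CSA, and 1423064_at stood apart at -0.11 ± 0.26 and -0.24 ± 0.26 (limma adjusted p = 0.766 and 0.535). Dnmt3b fell by 0.65 ± 0.13 in DMSO (limma adjusted p = 0.00189) and by 1.05 ± 0.13 under CSA (limma adjusted p = 0.000131), or by 0.72 and 1.13 relative to the median. The second Dnmt3b probe set, 1418351_a_at, was at -0.31 ± 0.26 in DMSO (limma adjusted p = 0.379) and fell by 0.80 ± 0.26 under CSA (limma adjusted p = 0.0354). By their brightest probe sets Dnmt3a rose and Dnmt3b fell in both treatments, and these 4 calls passed under all alternatives run for each. The Dnmt3b fall in DMSO rests on 1 of its 2 probe sets.

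Tet2 rose 1.94-fold in DMSO, by 0.96 ± 0.09 (limma adjusted p = 1.02e-05), or 0.88 relative to the median. Under CSA it was at 0.04 ± 0.09 (limma adjusted p = 0.777), with the 2 days' arrays overlapping. Here its probe sets disagreed: 1438781_at rose by 1.45 ± 0.09 in DMSO (limma adjusted p = 9.3e-07) and by 0.93 ± 0.09 under CSA (limma adjusted p = 4.07e-05). With the mean of both, Tet2 rose under CSA by 0.48 (limma adjusted p = 0.000937). Whether Tet2 rose with time under CSA thus depended on the probe set.

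Tet1 was higher at day 6 in DMSO, by 4.22 ± 0.94 (limma adjusted p = 0.00388), or 4.14 relative to the median. The difference is against day 3 arrays below the filter value, so its size and its call are descriptions. It was 2.41 without DMSO replicate 1 of day 3, the array at 1.26 (0.00444). Raising all signals below 5 to that floor gave a rise of 2.29. Both DMSO arrays of day 3 lay below 5 and both of day 6 above it, so this setting could only give a rise and does not test the direction. Under CSA it was at 0.97 ± 0.94 (limma adjusted p = 0.479). Uhrf1 fell in DMSO by 0.39 ± 0.12 (limma adjusted p = 0.0239), or by 0.46 relative to the median, and was at 0.12 ± 0.12 under CSA (limma adjusted p = 0.504). Its second probe set, 1415811_at, was at -0.38 ± 0.16 in DMSO (limma adjusted p = 0.0862), so the call rests on 1 of the 2 probe sets. The Uhrf1 fall ended in the fit that had no trend (0.118), and when replicate 2 of day 3 (0.189) or either array of day 6 (0.0686 and 0.112) was left out. Dnmt1 was at 0.02 ± 0.10 in DMSO and 0.14 ± 0.10 under CSA (limma adjusted p = 0.913 and 0.304), and Tet3 at 1.20 ± 0.80 and 0.71 ± 0.80 (0.258 and 0.549). Tet3 rose by 2.55 in DMSO without replicate 1 of day 3 (limma adjusted p = 0.0196), which leaves the day 3 array at 3.45 alone.

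**Figure D4:**
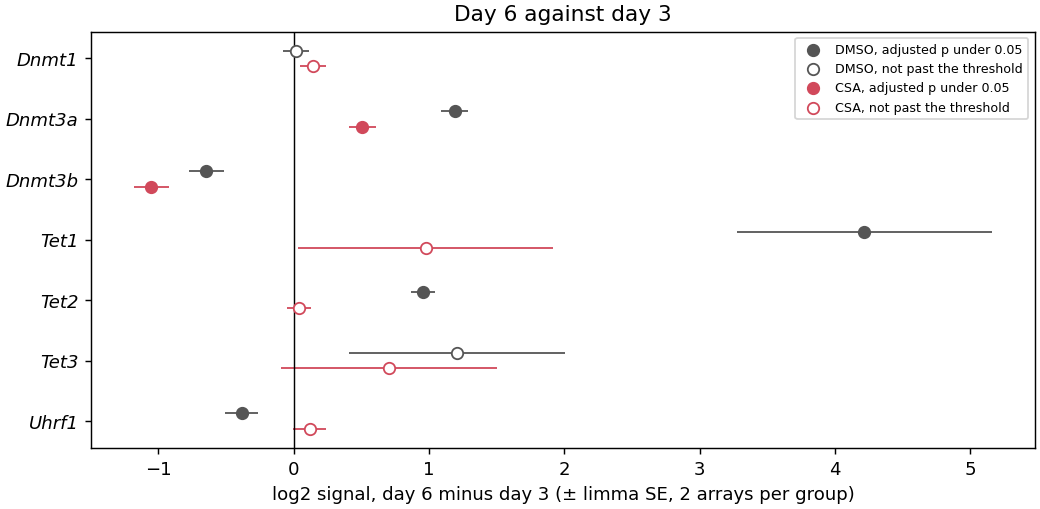
Change in log2 signal from day 3 to day 6 (horizontal axis) for the 7 tested genes in DMSO and under CSA, with limma's standard error (bars, 2 arrays per group); filled points have an adjusted p under 0.05. Dnmt3a rises by 1.19 and 0.51 and Dnmt3b falls by 0.65 and 1.05, while the Tet1 bars are the widest of those that pass, at 4.22 ± 0.94 in DMSO.

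Over the 8 arrays, Dnmt3a and Tet2 had the closest courses of any pair of the 7 genes (Pearson's r = 0.90), Dnmt1 and Uhrf1 were at 0.74, and Dnmt3a and Dnmt3b at -0.39. These points share the arrays and the day, and are a description. The genes outside the list whose pattern was most like a member over the 8 arrays were Zfp423, Jag1 and Rc3h1 for Dnmt3a (r = 0.997, 0.996 and 0.993) and Dck, Fermt2 and 2810002D19Rik for Dnmt3b (0.987, 0.985 and 0.984). For Tet2 they were Wdfy3, Slc6a15 and Upf2 (0.988, 0.986 and 0.986). For Dnmt1 they were Zfp955b, Haus5 and Prkcb (0.987, 0.968 and 0.964), and for Uhrf1 Hyls1, Commd10 and Limk1 (0.956, 0.954 and 0.944).

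Summed levels of cell type markers also differed between the groups. The epithelial markers had a summed anti-logged signal of 20487 to 21559 with DMSO and 26202 to 26223 with CSA at day 3, and 37315 to 39672 with DMSO and 28604 to 28686 with CSA at day 6, the same order of group means as Tet2. Of the 6, 4 rose with CSA at day 3 and 3 fell at day 6. Of all tested genes 7.14% were higher and 5.52% lower at day 3, and 6.41% higher and 6.11% lower at day 6. The fibroblast markers summed to 25111 to 26365 and 24092 to 24645 with DMSO and CSA at day 3, and to 37654 to 37892 and 32246 to 32405 at day 6, with 1 higher and 2 lower of 8 at day 3 and 2 lower at day 6. The keratinocyte markers summed to 10415 to 10652 with DMSO and 12911 to 13316 with CSA at day 3 and overlapped at day 6, at 12395 to 12778 and 12247 to 12452. The endothelial markers overlapped at day 3, at 1492 to 1550 and 1414 to 1550, and at day 6 were higher with CSA, at 2045 to 2098 against 1397 to 1473, with 1 of the 2 tested called higher and Pecam1 and Cdh5 below the filter. The pluripotency markers overlapped at day 3, at 935 to 978 with DMSO and 769 to 974 with CSA. At day 6 they summed to 1607 to 1718 and 1444 to 1455, and 0 were called at either day. Blood cell markers summed to 484 to 577 with DMSO and 351 to 444 with CSA at day 3 and overlapped at day 6. Germ cell markers, with Ddx4 and Dazl below the filter, summed to 51 to 79 and 116 to 120 at day 3, and to 125 to 169 and 207 to 226 at day 6. These low sums cover the 3 genes with a probe set, of which only 1 was tested. It was called higher with CSA at day 3 and not called at day 6. The part of the cell mixture in the values of the enzymes was not tested.

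Of 13 tested proteins that read methylated CpG or assist maintenance, 1 rose and 3 fell with CSA at day 3 (median -0.02), beside the 12.7% of all tested genes called at that day, and 0 rose and 2 fell at day 6 in limma (1 higher at an unadjusted p under 0.05, median -0.06), beside 12.5%. Hells, a remodeler needed for normal methylation, fell by 0.73 ± 0.09 at day 3 (limma adjusted p = 0.000729), on arrays at 10.72 and 10.71 with DMSO and 9.93 and 10.06 with CSA. This fall passed under all 14 alternatives, unlike those of Uhrf2, the relative of Uhrf1, at -0.46 ± 0.11, and of the chromosome protein Smchd1 at -0.35 ± 0.09, each of which ended without any 1 of the day 3 arrays. Smchd1 turned to 0.54 with the mean of its probe sets.

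Of 13 tested factors that guide or oppose methylation, 1 rose and 2 fell at day 3 (median -0.07, 12.7% of all tested genes called). At day 6, 2 fell and 0 rose in limma (0 higher at an unadjusted p under 0.05, median -0.22). Of all tested genes 12.5% were called at day 6 in either direction, a share near that of the list, and 6.11% were lower. Cxxc4, which encodes a CXXC protein known to bind TET2 and lower its protein, read 3.40 and 3.31 with DMSO and 5.79 and 6.13 with CSA at day 3, and 7.05, 7.13, 6.82 and 7.07 on the DMSO and CSA arrays of day 6. The DMSO arrays of day 3 were below the filter value, so the gene was tested through the other groups, where it is high. Its rise of 2.61 ± 0.46 at day 3 (limma adjusted p = 0.00499) became 0.96 when signals below 5 were raised to that floor (0.104), and its call also ended when the fit held only the arrays compared (0.114). Zfp57, a zinc finger that protects methylation at imprinted genes, fell by 2.28 ± 0.51 at day 3 (limma adjusted p = 0.0161), with CSA arrays at 6.13 and 4.05 against 7.41 and 7.32. That call ended when either DMSO array was left out (0.0697 and 0.0644) and in the fit that had no trend (0.141). The difference was -3.31 without CSA replicate 1 and -1.24 without CSA replicate 2.

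The list of base excision repair held later steps of repair and also glycosylases other than TDG, such as Neil1 and Mbd4. Of its 18 tested genes, 2 were lower at day 3 and 3 at day 6, beside 5.52% and 6.11% of all tested genes lower. As calls in either direction these were near the 12.7% and 12.5% of all tested genes called. None of the 18 was higher in limma (0 at either day, 0 at day 3 and 1 at day 6 at an unadjusted p under 0.05). Parp1, the strand break sensor, fell by 0.58 ± 0.08 at day 6 (limma adjusted p = 0.00116), on arrays at 11.88 and 11.89 with DMSO and 11.39 and 11.22 with CSA. The call ended without the trend (0.0562) and under no other setting. In the list of deaminases and Gadd45 factors, members went both ways. Gadd45a, a stress-induced factor linked to demethylation, rose by 1.44 ± 0.15 at day 3 and by 0.93 ± 0.15 at day 6 (limma adjusted p = 0.000205 and 0.0023). Gadd45b fell by 0.66 ± 0.10 and 0.79 ± 0.10 (limma adjusted p = 0.00221 and 0.000716). All 4 of these calls passed under the 14 alternatives.

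Methyl donor enzymes showed 2 falls of 7 tested at day 3, Ahcy and Adk, which clear the products of methyl transfer, and 0 calls by limma at day 6 (0 at an unadjusted p under 0.05). Over all tested genes 12.7% were called at day 3 (7.14% higher, 5.52% lower) and 12.5% at day 6 (6.41% higher, 6.11% lower). Ahcy fell by 0.40 ± 0.07 (limma adjusted p = 0.0054), a call that ended when CSA replicate 2 of day 3 was left out and in the fit that had no trend. Adk fell by 0.33 ± 0.06 (limma adjusted p = 0.00474), and its call ended under 4 of 14 alternatives. Of 14 tested enzymes around 2-oxoglutarate, the TET cosubstrate, 1 rose at day 3, when 12.7% of all tested genes were called. At day 6, 1 rose and 2 fell, beside 12.5% of all tested genes called. Psat1, a serine synthesis enzyme that yields 2-oxoglutarate, rose by 0.45 ± 0.06 and 0.61 ± 0.06 at the 2 days (limma adjusted p = 0.00145 and 0.000208). Idh2, the mitochondrial isocitrate dehydrogenase, fell by 0.50 ± 0.08 at day 6 (limma adjusted p = 0.00226). The Idh2 call ended in the fit that had no trend and when probe sets able to read several transcripts were dropped, and the Psat1 call at day 3 ended in the former. Of 16 germline genes that methylation silences and that had a probe set, 2 were above the filter, and Dazl and Ddx4 were below it. Slc25a31, one of the 2, read 7.72 and 7.20 with DMSO and 7.28 and 7.45 with CSA at day 3, and 4.49 and 4.69 with DMSO and 5.95 and 5.93 with CSA at day 6. The groups overlapped at day 3, and at day 6 the DMSO arrays were the lower, below the filter value. The gene was thus tested through the other groups, where it is higher, so the sizes of its differences from DMSO at day 6 are descriptions. It was higher with CSA at day 6 by 1.35 ± 0.37 (limma adjusted p = 0.0433), a call that ended under 10 of 13 alternatives, among them each omission of 1 array of that day (up to 0.135 without DMSO replicate 1). From day 3 to day 6 it fell by 2.87 ± 0.37 in DMSO (limma adjusted p = 0.000101) and by 1.43 ± 0.37 under CSA (limma adjusted p = 0.0132), the latter a call that ended without either CSA array of day 3.

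**Figure D5:**
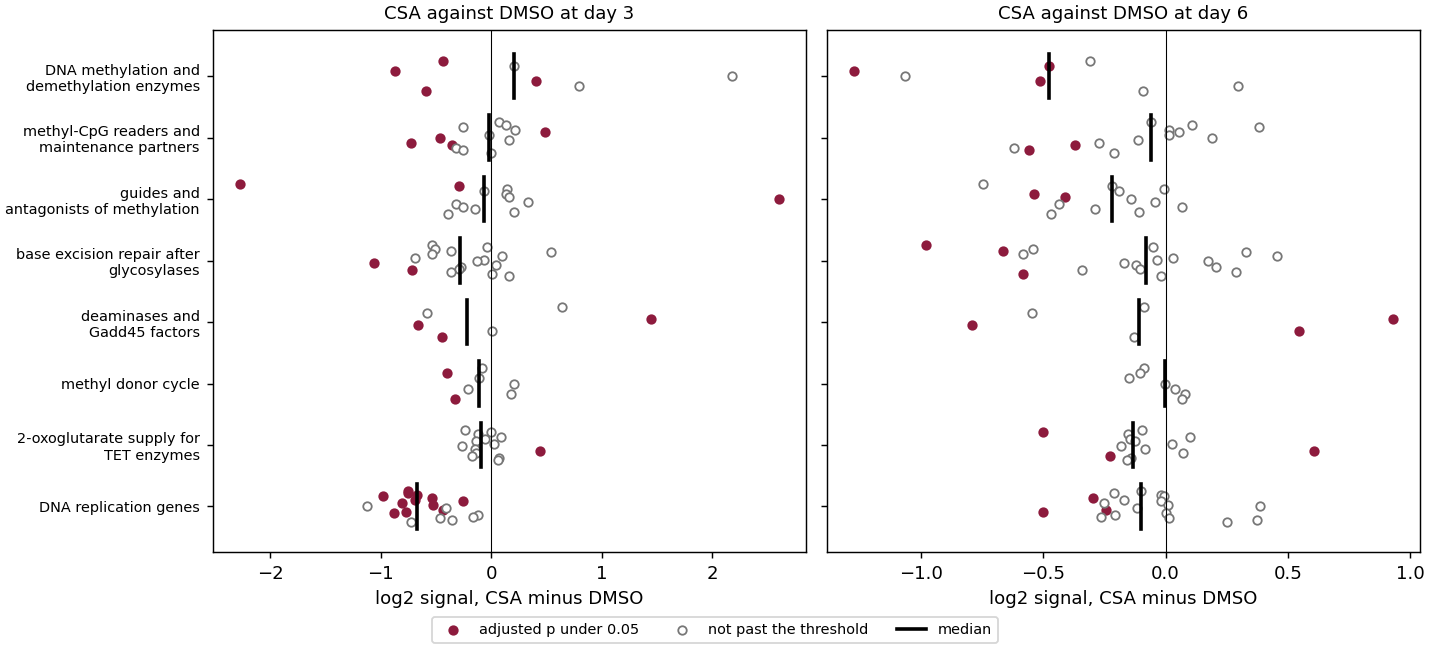
Difference in log2 signal between CSA and DMSO (horizontal axis) at day 3 (left) and day 6 (right) for the tested genes of each list; filled points have an adjusted p under 0.05 and black bars are medians. At day 3 the replication genes lie lowest, with a median of -0.67, and at day 6 the methylation enzymes do, with a median of -0.48 over 7 genes.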

How the data were processed

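The values are log2 signals that the authors deposited, covering 45037 probe sets on each of 8 one-colour Affymetrix arrays. The submitters' processing notes name MAS5, which scales each array by a constant. Its version, its scaling target and scan dates were not given here, in the labels or the notes. The trimmed mean of the anti-logged values (2% at each end) was 496.8 to 497.5 on every array. The values were used as deposited. Tests covered the 27022 probe sets whose mean reached the 40th percentile (5.37). The annotation gave 1 symbol for 34945 probe sets, and several for 932, and did not list 9160.

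Limma 3.58.1 in R 4.3.3 fitted 1 mean per group to all 8 arrays (4 residual degrees of freedom), a prior variance that followed the mean signal (the trend), two-sided tests, and Benjamini-Hochberg adjustment over the tested probe sets. The pipeline was tested on simulated data. The number of arrays limits precision. The p-values rest on the spread between these repeats, with that of each probe set drawn toward the spread of probe sets of similar mean signal.

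The members, lists and named genes (up to 4 per list with the smallest p for CSA, 2 for the days, of which some are given, and the 3 genes most correlated with each of 5 members) were chosen with earlier results of these data known. Alternatives were: no trend, no filter or a 60th percentile filter, quantile normalization, a floor of 5, a pseudocount of 32, only the arrays compared, a replicate block, averaged probe sets, no probe sets that can read several transcripts, and leaving out each array.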

Additional observations from a re-analysis of the deposited data

Results flagged for a closer look

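For 2 genes the CSA effect differed between the days by a test of the difference itself. Tet2 had a day 6 effect minus day 3 effect of -0.92, with CSA arrays above DMSO arrays at day 3 and below them at day 6. Dnmt3a had a difference of -0.68, with CSA arrays above DMSO arrays at day 3, an effect that did not pass, and below them at day 6. Both differences ended without the trend, and that of Dnmt3a also when its probe sets were averaged and in most omissions of 1 array. The second Tet2 probe set was at -0.52 ± 0.13 and did not pass (limma adjusted p = 0.0542). Groups of 2 arrays are too small for a search for outlying arrays.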

How the results depend on the processing

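Of 491 values of the 7 tested genes under the alternatives, 440 kept their direction and side of the threshold, 32 lost the call, 8 gained it and 11 changed sign. Without the intensity trend the number of genes past the threshold was 1 of 7 for CSA at day 3 and 1 at day 6, against 4 and 3, and 0 for the difference between days, against 2. Over all tested probe sets this setting called 442, 694 and 0, against 2588, 2612 and 1144. Without probe sets that can read several transcripts, 5 genes were left to test, since all probe sets of Dnmt1 and Dnmt3b are of that kind. Of the 5, 2 passed at day 3 and 1 for the days under CSA. Over the fewer probe sets tested, this setting called 1672 and 5952 in these comparisons, against 2588 and 8358. Leaving out 1 array gave 1 to 3 genes for CSA at day 3, 2 to 3 at day 6, 1 to 3 for the difference, 4 to 6 for the days in DMSO and 2 for the days under CSA. Such fits also have fewer degrees of freedom, and over all probe sets they called 1076 at the lowest at day 3 and 1112 at day 6.

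Replicate numbers did not pair the arrays: the correlation of same-numbered deviations was -0.003 to 0.034 between groups. With the number as a replicate block 4, 4, 2, 5 and 2 genes passed in the 5 comparisons, and Dnmt1 joined at day 6 (limma adjusted p = 0.0356). Over all tested probe sets this setting called 2724, 2742, 1208, 11131 and 8516, against 2588, 2612, 1144, 10970 and 8358 in the main fit.

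Signs changed as follows, and the cause was not tested. With probe sets averaged per gene, Dnmt3a was at -0.026 for CSA at day 3, Dnmt1 at -0.10 for the days in DMSO, Smchd1 at 0.54 for CSA at day 3, and Adk in DMSO and Polb under CSA at 0.41 (limma adjusted p = 0.0311) and 0.20 for the days. Without probe sets that can read several transcripts Setdb1 and Cdt1 were at 0.15 and 0.059 for CSA at day 6. Tet3 was at 0.28 for the difference with a floor of 5. Leaving out 1 array put Tet3 between -0.55 and 2.14 for CSA at day 3, -0.14 and 0.74 at day 6, -1.84 and 0.85 for the difference and -0.14 and 2.55 for the days in DMSO. It put Dnmt1 between -0.051 and 0.083 for the days in DMSO, and Tet2 between -0.081 and 0.16 and Uhrf1 between -0.039 and 0.28 under CSA.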
